A study of Mus musculus with 12 samples.

Results

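The 43 genes described here build the autophagosome and the lysosome, and their transcripts were compared between the livers of exercised and sedentary mice. They were chosen by name from the deposited table of 17432 genes. The rule uses no measured value, but earlier results of these data were known when the genes were chosen. The list holds 2 genes of the TFEB family, 5 of the ULK1 complex and 5 of the class III PI3K complex. Another 5 belong to phagophore growth and lipid transfer, 7 are conjugation enzymes, 5 are ATG8 genes and 5 are cargo receptors. The rest are 4 genes of the lysosomal membrane and fusion and 5 lysosomal enzymes. All 43 were in the table and all 43 passed the filter on low counts among the 12344 genes tested. The lowest count of any of them in any liver was 55.

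RNA was sequenced from the livers of 12 male wild-type C57BL/6J mice of 8 to 10 weeks, with no transgene and no deleted allele, and each liver was a separate mouse. The Sedentary group (n = 6) and the Exercise group (n = 6) both went through 3 days of daytime feeding and nightly fasting to synchronize their food intake. On the next day the mice of both groups were refed, and food was then removed from both before the run. The Exercise mice ran a single bout of 3 h at 14 m/min on a treadmill, and the Sedentary mice did not run. Samples of both groups were collected when the run ended, so neither group had food during it. The comparison asks how the liver transcriptome differs after postprandial exercise.

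Autophagy encloses a piece of cytoplasm in a growing double membrane, the phagophore, and delivers it to the lysosome, where enzymes break it down. The ULK1 kinase complex starts the process, the class III PI3K complex marks the membrane with a lipid, ubiquitin-like enzymes attach ATG8 proteins to it, and cargo receptors bind both the cargo and ATG8. In the liver, autophagy is known to run down in the fed state under insulin and mTORC1 and to increase in fasting, and TFEB and TFE3 are transcription factors of the MiT/TFE family that bind the CLEAR element in front of lysosomal and autophagy genes.

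Of the 43 genes, 18 (41.9%) were higher in exercised livers and 4 (9.3%) were lower by edgeR's quasi-likelihood test at an adjusted p under 0.05, the threshold used throughout. Over all genes tested, 21.1% were higher and 21.3% were lower, so the share of higher genes was about that of lower genes there but not among the 43. In either direction 22 of 43 (51.2%) passed, against 42.4% of all genes tested. The median log2 fold change was 0.14 over the 43 genes and -0.0028 over all genes tested. The changes were modest: 4 genes, Pik3c3, Gabarapl1, Atg14 and Ulk1, were at least 1.5-fold higher, and none of the 43 changed by 2-fold in this fit, although Pik3c3 reached a log2 fold change of 1.09 when 1 liver was left out. In 16 of the 43 genes (37.2%) the 6 exercised and the 6 sedentary livers did not overlap in CPM (counts scaled to library size, with TMM factors), 14 of them with exercise above and 2 with exercise below, against 22.3% of all genes tested. That count depends on the scaling and was 9 with Rplp0 as internal control.

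**Figure D1:**
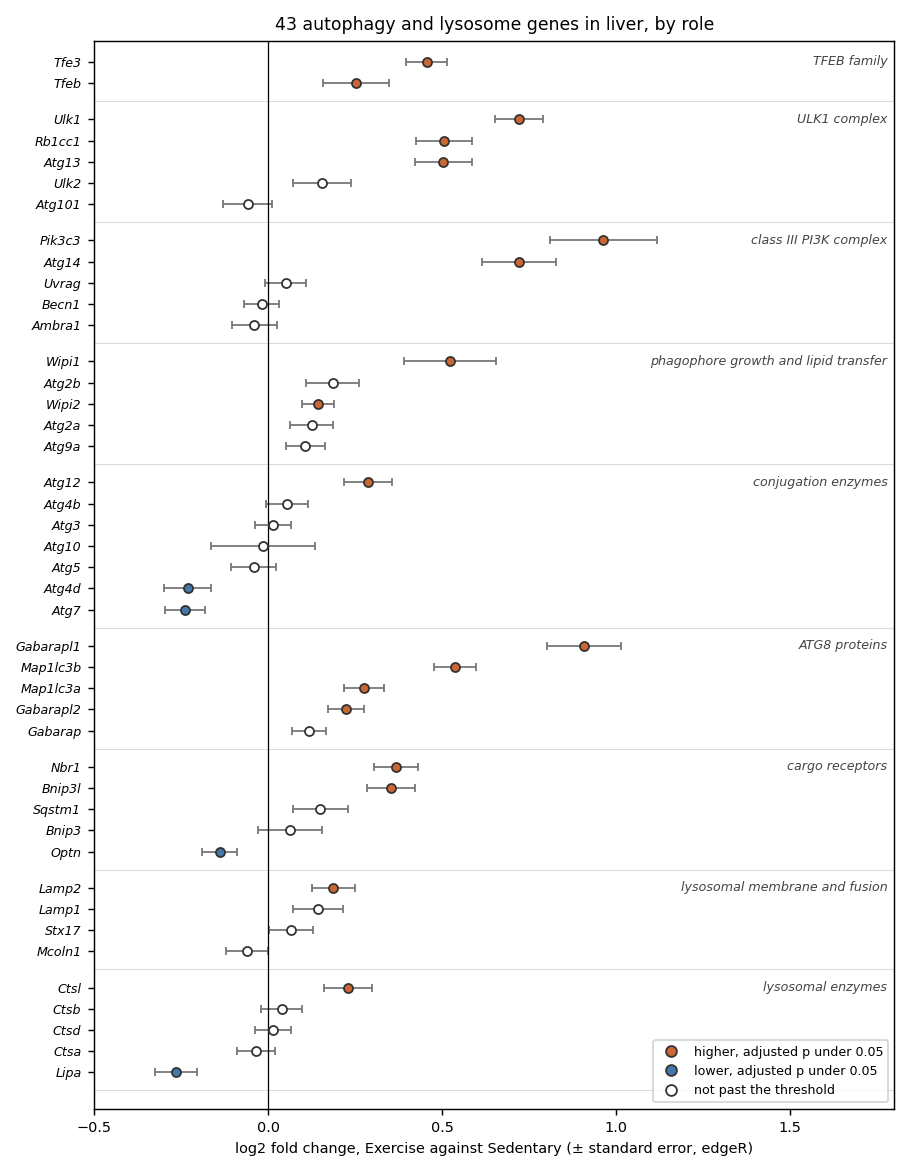
The log2 fold change of each of the 43 genes (x axis, Exercise against Sedentary, with its standard error from edgeR) is drawn by role (y axis). Filled orange points are higher and filled blue points lower at an adjusted p under 0.05, and the white points, 21 in all, lie between -0.06 and 0.19.

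Library totals ran from 18745379 to 19324461 counts and the TMM factors from 0.914 to 1.09. Some markers of other cells moved with exercise: 4 of 8 sinusoidal endothelial markers were higher and 1 was lower (summed level 157 to 224 CPM in Sedentary and 195 to 295 CPM in Exercise), and 2 of 8 stellate cell markers were lower (169 to 230 CPM and 156 to 229 CPM). None of 11 Kupffer cell markers passed (122 to 204 CPM and 144 to 220 CPM), nor did any of 5 cholangiocyte markers, 5 red blood cell markers or the 2 of 8 leukocyte markers that could be tested. All 6 cardiac muscle markers tested were lower: their summed counts were 232 to 504 in sedentary livers and 10 to 26 in exercised livers, except for 237 in Exercise replicate 1. Without Exercise replicate 1, 18 of the 43 genes were higher and 3 were lower. In that fit the cardiac counts separate the groups fully, so it cannot show what part they have. The hepatocyte markers Alb and Tat were higher and the other 6 of 8 did not pass. The part of these markers in the results below was not tested, and in whole liver a change in the number of cells of one type and a change in RNA per cell cannot be told apart.

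Both members of the TFEB family were higher. Tfe3 (gene ID 209446, chromosome X, 7762530 to 7775202 on GRCm38) was at 20.6, 22.8 and 24.6 CPM in sedentary livers (lowest, median, highest) and at 28.8, 31.3 and 32.9 CPM in exercised livers. The groups did not overlap, and the log2 fold change was 0.46 (SE, the standard error, 0.059, adjusted p = 1.01e-05). A two-sided exact permutation test over all relabellings of the livers gave p = 0.00216, the smallest p that 6 against 6 livers allow. Any gene whose groups do not overlap must give this p, so here and below it only restates the separation. Tfeb (gene ID 21425, chromosome 17) was at 9.73 ± 0.917 CPM (SD, n = 6) and 11.6 ± 1.56 CPM (SD, n = 6), with overlap, a log2 fold change of 0.25 and an adjusted p of 0.0373 by edgeR. That call was lost in 6 of 11 other settings and in 8 of 12 fits that left out 1 liver, with an adjusted p up to 0.0976 in the latter. Per transcript length, in FPKM, Tfe3 was above Tfeb in each group, at 7.93 against 4.71 in Sedentary and 10.2 against 5.18 in Exercise.

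The CLEAR element was searched in the RefSeq promoter windows on GRCm38.p6, each running from 250 bases before a start site to 50 after it. Of the 43 genes, 36 had at least 1 window, and the core letters GTCACGTG were looked for on both strands. They occurred in 7 of 41 windows (17.1%), against 2.25% of all 32851 windows and 3.97% of the windows of genes tested. The 7 genes were Atg14, Atg7, Atg3, Ctsa, Ctsd, Lamp1 and Mcoln1. For each, 1 match with its surroundings is shown 5′ to 3′ on the gene's strand, the nearest one that starts before the start site, with the core in capitals, because these are the letters that TFEB and TFE3 are known to bind.
Atg14, chr14:47568417-47568446, minus strand: aaacaaaatccCACGTGACtggccctgagc
Atg7, chr6:114670951-114670980, plus strand: ccatattggtgGTCACGTGtgcagtaagtg
Atg3, chr16:45158745-45158774, plus strand: gggagagtcgaGTCACGTGaggccttaggt
Ctsa, chr2:164833748-164833777, plus strand: atgagcaaactGTCACGTGatgcagatgct
Ctsd, chr7:142387907-142387936, minus strand: cgcccgcgtctCACGTGACccgttgagggc
Lamp1, chr8:13159122-13159151, plus strand: atgccgactggCACGTGACcacatcacgtg
Mcoln1, chr8:3500463-3500492, plus strand: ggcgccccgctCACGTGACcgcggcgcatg

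Of the 7 genes with these letters, 1 rose. Atg14 was higher, Atg7 was lower, and Atg3, Ctsa, Ctsd, Lamp1 and Mcoln1 did not pass, with log2 fold changes between -0.06 and 0.14. Among the 29 genes with a window but no core, 12 were higher. Of the 7 genes without a window, Pik3c3, Rb1cc1, Map1lc3a, Bnip3l and Atg12 were higher, and Ctsb and Becn1 did not pass. Over all genes tested, 21.1% were higher. The Atg7 and Ctsa windows belong to start sites inside these genes, which begin at 114643127 and 164832872. The E-box CACGTG, which lies within the core and so overlaps it, was in 24.4% of the windows of the 43 genes, in 7.15% of all windows and in 9.64% of the windows of genes tested. The FoxO element TGTTTAC was in 0 of the 41 windows, against 3.65% of all windows and 2.77% of the windows of genes tested, which says only that these letters are not in the stretches searched.

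Of the ULK1 complex, the kinase Ulk1, its scaffold Rb1cc1 (FIP200) and the adaptor Atg13 were higher, and the second kinase Ulk2 and the adaptor Atg101 did not pass. Ulk1 (gene ID 22241, chromosome 5, 110784489 to 110810120) was at 66.5, 81.3 and 88.1 CPM in sedentary livers (lowest, median, highest) and at 125, 129 and 135 CPM in exercised livers. Every exercised liver was above every sedentary liver, and the log2 fold change of 0.72 (SE 0.068, adjusted p = 4.04e-07) made Ulk1 the gene with the smallest p of the 43. The stretch before its start site is shown because it holds 5 matches to the GC box GGGCGG, here in capitals on either strand, letters that occur in 68.3% of the windows of the 43 genes, in 35.7% of all windows and in 60.1% of the windows of genes tested.
Ulk1, chr5:110810082-110810331, minus strand: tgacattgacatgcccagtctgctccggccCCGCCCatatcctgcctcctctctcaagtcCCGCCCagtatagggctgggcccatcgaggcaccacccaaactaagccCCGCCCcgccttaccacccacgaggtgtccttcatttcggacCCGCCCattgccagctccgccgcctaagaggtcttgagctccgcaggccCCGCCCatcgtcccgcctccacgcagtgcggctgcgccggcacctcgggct

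Rb1cc1 (gene ID 12421, chromosome 1, 6214634 to 6276375) was at 15.1, 20.3 and 22.9 CPM in sedentary livers and at 26.9, 28.0 and 30.0 CPM in exercised livers. Its log2 fold change was 0.51 (SE 0.081, adjusted p = 7.81e-05), with no overlap between the groups. Atg13 (gene ID 51897, chromosome 2, 91674612 to 91710597) ran from 26.0 to 36.6 CPM around a median of 31.2 CPM in Sedentary and from 37.4 to 48.2 CPM around 45.1 CPM in Exercise. The groups came close but did not overlap, and the log2 fold change was 0.50 (SE 0.082, adjusted p = 8.9e-05). Ulk2 overlapped widely, at 36.4 ± 5.56 CPM and 40.5 ± 2.33 CPM (SD, n = 6 each, adjusted p = 0.145 by edgeR), and Atg101 was at 22.0 ± 1.03 CPM and 21.1 ± 2.28 CPM (SD, n = 6 each, adjusted p = 0.543 by edgeR). The ratio of Ulk1 to Ulk2 in FPKM was 2.58 ± 0.364 in Sedentary and 3.78 ± 0.308 in Exercise (SD, n = 6 each), with no overlap. The pair was chosen after the single values had been seen, so the ratio is given without a test.

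**Figure D2:**
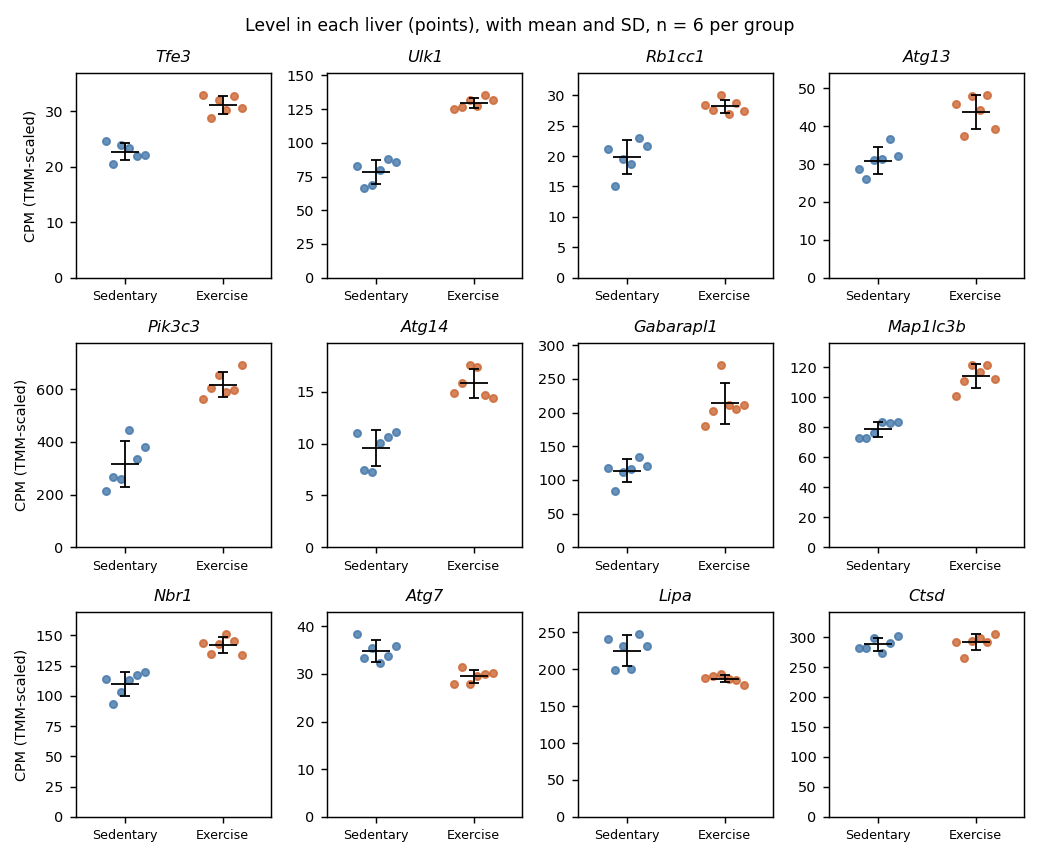
CPM (y axis, from 0) of 12 genes is drawn for each liver as a point, with the mean and SD of the 6 livers of each group (x axis). Ulk1 lay at 66.5 to 88.1 CPM in sedentary and 125 to 135 CPM in exercised livers, whereas Ctsd lay at 273 to 302 CPM and 265 to 305 CPM.

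In the class III PI3K complex the catalytic subunit and the subunit that directs it to autophagy rose. Pik3c3, the lipid kinase VPS34 (gene ID 225326), was at 213, 301 and 445 CPM in sedentary livers (lowest, median, highest) and at 562, 602 and 694 CPM in exercised livers. The groups did not overlap, and the log2 fold change of 0.96 (SE 0.15, adjusted p = 0.000279) was the largest of the 43. The sedentary livers were widely spread, with 213 CPM in replicate 1 and 445 CPM in replicate 4, and the exercised livers were not. Atg14 (gene ID 100504663, chromosome 14, 47540893 to 47568434), which targets the kinase to the phagophore, was a low-level gene at 7.24, 10.3 and 11.1 CPM in Sedentary and 14.4, 15.4 and 17.6 CPM in Exercise. It separated the groups as well, with a log2 fold change of 0.72 (SE 0.11, adjusted p = 3.55e-05).

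The other 3 genes of the complex did not pass. The scaffold Becn1 was at 44.4 ± 1.71 CPM and 43.9 ± 1.97 CPM (SD, n = 6 each). Ambra1, which binds Beclin 1, had a log2 fold change of -0.04, and Uvrag, the subunit that takes the place of ATG14 in the endosomal form of the complex, one of 0.05. In FPKM, Pik3c3 was at 52.2 in Sedentary against 23.9 for Becn1 and 2.91 for Atg14, and at 95.9, 22.2 and 4.49 in Exercise.

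Among genes of phagophore growth, the PI3P-binding proteins Wipi1 and Wipi2 were higher, and the lipid transfer genes Atg2a and Atg2b and the scramblase Atg9a did not pass. Wipi2 (gene ID 74781, chromosome 5, 142629533 to 142669672) was tightly grouped, at 33.7, 34.4 and 36.1 CPM in Sedentary and at 36.9, 38.1 and 39.6 CPM in Exercise. The groups did not overlap but the difference was small, with a log2 fold change of 0.14 (SE 0.047, adjusted p = 0.0196), and with scaling by library size alone, by Rplp0 or in FPKM it no longer passed. Wipi1 was nearer the floor, at 5.41 ± 1.28 CPM and 7.76 ± 0.759 CPM (SD, n = 6 each), with overlap, a log2 fold change of 0.52 and an adjusted p of 0.00395 by edgeR. Atg2b, Atg2a and Atg9a had log2 fold changes of 0.19, 0.13 and 0.11.

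The conjugation enzymes, which attach ATG12 to ATG5 and ATG8 to lipid, moved in both directions: Atg12 was higher, Atg7 and Atg4d were lower, and Atg3, Atg4b, Atg5 and Atg10 did not pass. Atg7, the E1-like enzyme at the head of both conjugation systems (gene ID 74244, chromosome 6, 114643127 to 114860604), was at 32.2, 34.6 and 38.3 CPM in sedentary livers and at 27.8, 29.8 and 31.4 CPM in exercised livers. Every exercised liver was below every sedentary liver, with a log2 fold change of -0.24 (SE 0.057, adjusted p = 0.00243). Atg4d, a protease that trims ATG8 proteins, was at 20.4 ± 1.70 CPM and 17.4 ± 1.19 CPM (SD, n = 6 each, log2 fold change -0.23, adjusted p = 0.0113 by edgeR), with overlap. Atg12, the ubiquitin-like modifier itself, was at 19 ± 1.20 CPM and 23.2 ± 2.09 CPM (SD, n = 6 each, log2 fold change 0.29, adjusted p = 0.00248 by edgeR), also with overlap. Atg3, Atg4b, Atg5 and Atg10 had log2 fold changes from -0.04 to 0.05, and Atg10 had the lowest level of the 43 genes at 2.34 FPKM over the 12 livers.

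The ATG8 genes encode the ubiquitin-like proteins that coat the phagophore. In TMM-scaled CPM, the exercised livers lay above the sedentary livers without overlap in all 5, although Gabarap did not pass edgeR's test. In FPKM the groups overlapped for Gabarapl2, Map1lc3a and Gabarap, and Gabarap was at 226 ± 10.4 in Sedentary and 230 ± 7.43 in Exercise (SD, n = 6 each). Gabarapl1 (gene ID 57436, chromosome 6, 129533192 to 129542331) moved most, from 83.0, 117 and 134 CPM in sedentary livers (lowest, median, highest) to 180, 208 and 271 CPM in exercised livers. Its log2 fold change was 0.91 (SE 0.11, adjusted p = 8.91e-06). The lowest sedentary value was in replicate 2 and the highest exercised value in replicate 3. The stretch before its start site is shown because it carries 2 GC boxes, in capitals, and none of the other letters searched.
Gabarapl1, chr6:129532942-129533191, plus strand: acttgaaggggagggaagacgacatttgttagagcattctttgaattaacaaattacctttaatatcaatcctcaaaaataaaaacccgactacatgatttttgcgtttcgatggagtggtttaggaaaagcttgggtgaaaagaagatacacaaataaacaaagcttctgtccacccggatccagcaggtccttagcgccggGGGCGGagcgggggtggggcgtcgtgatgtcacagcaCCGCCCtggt

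Map1lc3b, the LC3B gene (gene ID 67443, chromosome 8, 121590438 to 121598760), was at 72.6, 79.5 and 83.4 CPM in Sedentary and at 101, 115 and 122 CPM in Exercise. The groups lay well apart, and the log2 fold change was 0.54 (SE 0.060, adjusted p = 2.23e-06). Map1lc3a (gene ID 66734, chromosome 2, 155276364 to 155278073) was at 30.8, 33.1 and 37.2 CPM and at 39.2, 40.9 and 43.1 CPM, with a log2 fold change of 0.28 (SE 0.058, adjusted p = 0.000935). Gabarapl2 (gene ID 93739, chromosome 8, 111940703 to 111952915) was at 37.6, 39.8 and 41.1 CPM and at 42.5, 46.8 and 50.3 CPM, with a log2 fold change of 0.22 (SE 0.052, adjusted p = 0.00206). Both rises were smaller than that of Map1lc3b but left the groups apart in CPM. That of Gabarapl2 did not pass with scaling by library size alone or in FPKM. Gabarap was at 235 ± 9.44 CPM and 255 ± 5.73 CPM (SD, n = 6 each, log2 fold change 0.12, adjusted p = 0.0596 by edgeR), and it passed with DESeq2 (adjusted p = 0.00793) and without Sedentary replicate 4 (adjusted p = 0.0419).

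Because the 5 genes moved unequally, the make-up of the ATG8 transcripts in FPKM differed between the groups. Summed over the 5 genes the level was 407 ± 12.3 FPKM in Sedentary and 483 ± 18.3 FPKM in Exercise (SD, n = 6 each), with no overlap (exact permutation test, p = 0.00216). Gabarapl1 made up 16.7% ± 2.16 of the sum in sedentary and 24.7% ± 2.21 in exercised livers (SD, n = 6 each), and Map1lc3b 8.28% ± 0.471 and 9.47% ± 0.401. Gabarap, the most abundant per length in every liver, made up 55.5% ± 1.70 and 47.6% ± 1.61. The groups did not overlap for any of these 3 shares. That fixes the exact permutation test at p = 0.00216 each (adjusted p = 0.00325 over 9 values). The 9 values were the 5 shares, their sum and 3 ratios between pairs of genes, all chosen after the single values had been seen. Adjustment does not correct for that choice, so these p-values are descriptive. Groups that do not overlap stay apart when any 1 liver is left out. The 3 shares therefore kept their direction and passed in all such fits, which adds nothing to the separation. The share of Gabarapl2 was 10.9% ± 0.572 and 10.0% ± 0.624 (exact permutation test, p = 0.039), which missed the threshold in 6 of 12 such fits, and that of Map1lc3a was 8.63% ± 0.467 and 8.27% ± 0.528 (exact permutation test, p = 0.249). The 5 genes are paralogs, and reads that match more than 1 gene are shared out by estimation, which leaves fractional counts. The counts of Gabarap, Gabarapl1, Gabarapl2 and Map1lc3a were whole numbers in every liver, and only those of Map1lc3b were fractional. The counts thus show no reads shared out among the 5.

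**Figure D3:**
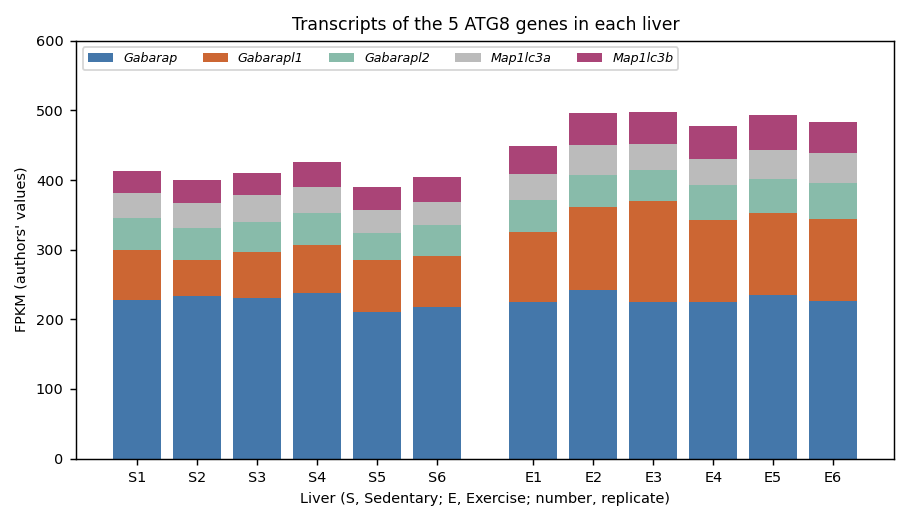
FPKM of the 5 ATG8 genes (y axis, the authors' values, from 0) is stacked for each of the 12 livers (x axis). The whole bar is 390 to 426 FPKM in sedentary and 449 to 498 FPKM in exercised livers, and the Gabarapl1 segment widens from 13.1 to 19.3% of the bar to 22.4 to 28.9%.

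Of the cargo receptors, Nbr1 and Bnip3l were higher, Optn was lower, and Sqstm1 and Bnip3 did not pass. Nbr1, a receptor for ubiquitinated cargo (gene ID 17966, chromosome 11, 101552107 to 101581951), was at 93.0, 113 and 120 CPM in sedentary livers and at 134, 143 and 151 CPM in exercised livers. Its groups did not overlap and its log2 fold change was 0.37 (SE 0.063, adjusted p = 0.000149). Bnip3l (NIX), a receptor on mitochondria (gene ID 12177, chromosome 14, 66985238 to 67008877), was at 48.4, 55.2 and 63.1 CPM and at 64.5, 70.5 and 76.2 CPM, with a log2 fold change of 0.35 (SE 0.068, adjusted p = 0.000473) and groups that nearly touched.

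Sqstm1, the p62 receptor and the most abundant of the 5 in FPKM (150 in Sedentary and 155 in Exercise), overlapped between the groups at 250 to 335 CPM and 288 to 380 CPM (adjusted p = 0.138). Bnip3, the paralog of Bnip3l, was at 171 ± 18.8 CPM and 178 ± 26.3 CPM (SD, n = 6 each). Optn, optineurin, was at 64.4 ± 2.85 CPM and 58.4 ± 1.89 CPM (SD, n = 6 each, log2 fold change -0.14, adjusted p = 0.0297 by edgeR). The Optn call was lost in 7 of 12 fits that left out 1 liver, with an adjusted p up to 0.0746, and in 2 of 11 other settings.

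Of the 9 genes of the lysosome, 2 were higher and 1 was lower, a share no higher than the 42.4% of all genes tested that changed. Lamp2, which with LAMP1 lines the lysosomal membrane, was at 451 ± 35.4 CPM and 514 ± 25.9 CPM (SD, n = 6 each, log2 fold change 0.19, adjusted p = 0.02 by edgeR), with overlap. Lamp1, the calcium channel gene Mcoln1 and the fusion SNARE gene Stx17 had log2 fold changes of 0.14, -0.06 and 0.07 and did not pass. The cathepsin genes Ctsb and Ctsd and the carboxypeptidase gene Ctsa were close to level, at 463 ± 21.2 and 476 ± 32.0 CPM, 288 ± 11 and 291 ± 13.6 CPM, and 127 ± 6.07 and 124 ± 7.10 CPM (SD, n = 6 each).

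Ctsl, the cathepsin L gene, was higher with overlap, at 330 ± 28.7 CPM and 387 ± 30.1 CPM (SD, n = 6 each, log2 fold change 0.23, adjusted p = 0.0119 by edgeR). The Lamp2 and Ctsl calls were both lost with scaling by library size alone, by Rplp0 or in FPKM. Lipa, the lysosomal acid lipase that frees fatty acids and cholesterol from delivered lipid (gene ID 16889, chromosome 19, 34492316 to 34527474), was lower, at 200, 232 and 247 CPM in sedentary livers and at 179, 187 and 194 CPM in exercised livers. The exercised livers were tightly grouped below all sedentary livers, with a log2 fold change of -0.26 (SE 0.061, adjusted p = 0.00199).

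**Figure D4:**
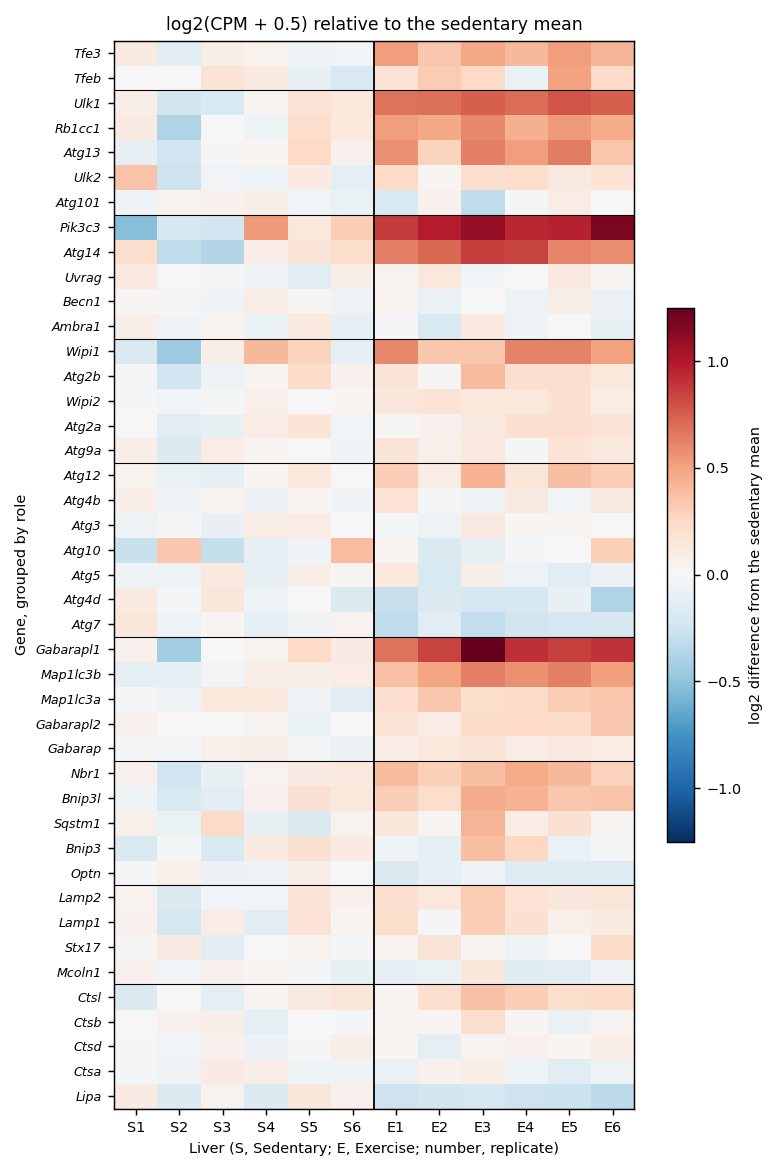
Each cell is the log2(CPM + 0.5) of a gene (y axis, by role) in a liver (x axis) relative to the mean of the 6 sedentary livers, from -0.53 to 1.26. The rows of Tfe3, Ulk1, Pik3c3, Gabarapl1 and Map1lc3b are red in all 6 exercised livers, and the lysosomal enzyme block is pale except for Lipa and Ctsl.

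Some livers stood at one end of their group more often than others. Exercise replicate 3 had the highest exercised CPM in 20 of the 43 genes and Exercise replicate 2 the lowest in 16. Among sedentary livers, replicate 5 was the highest in 15 genes and replicate 2 the lowest in 16. Exercise replicate 3 and Sedentary replicate 5 had the lowest TMM factors of their groups (0.914 and 0.97). Exercise replicate 2 and Sedentary replicate 2 had the highest (1.01 and 1.09). The part of the scaling in these counts was not tested, and no such count was made over all genes. Of the 22 changed genes, 20 passed in each of the 12 fits that left out 1 liver, the exceptions being Tfeb and Optn. The number of reads per FPKM depends on which transcripts a gene's reads are assigned to. It overlapped between the groups for all 43 genes. Lack of overlap in this number was rare among other genes too, so its absence here says little. By the exact permutation test, 15 of the 43 genes had an unadjusted p under 0.05 for it, and none passed after adjustment over the 43. This test was not run over all genes, so the 15 cannot be read as particular to the 43. The median size of the shift was 0.0026 on the log2 scale over the 43 genes and 0.0031 over the 9257 genes measured. The largest shift was 0.05 on the log2 scale (Atg7), which was among the larger shifts of all genes measured. Count and FPKM thus gave nearly the same fold for each of the 43 genes apart from the scaling of the library.

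The other genes of the pathway, 124 named genes in 6 lists that hold none of the 43, had 122 tested. Of these, 31 (25.4%) were higher and 16 (13.1%) were lower, with a median log2 fold change of 0.03. Over all genes tested, 21.1% were higher and 21.3% lower, and the 6 lists below are to be read against these shares. In either direction 38.5% of the 122 passed, against 42.4% of all genes tested. The split of the 122 depended on the scaling. With library size alone, 12 were higher and 33 lower, and in FPKM (limma on log2(FPKM + 1)) 12 were higher and 31 lower. Of the 43 genes, 13 were higher and 5 lower under each, against 18 and 4 with TMM: the higher calls of Tfeb, Wipi2, Gabarapl2, Lamp2 and Ctsl were lost and Mcoln1 was called lower. Over all genes tested, 49.8% of the calls were higher with TMM and 32.1% with library size alone, which moved the median log2 fold change to -0.098.

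Of 25 other core autophagy genes tested, 8 (32.0%) were higher and 2 (8.0%) lower. Nrbf2, a subunit of the ATG14 form of the class III PI3K complex, went from 21.1 ± 0.635 to 28.7 ± 1.33 CPM (SD, n = 6 each, log2 fold change 0.44, adjusted p = 4.16e-06 by edgeR). Zfyve1 (DFCP1), which marks the site where the phagophore forms, and the scramblase gene Vmp1 had log2 fold changes of 0.39 and 0.44, also without overlap. Of 17 other selective receptors, 7 (41.2%) were higher and 1 (5.9%) lower. Retreg1 (FAM134B), a receptor for the endoplasmic reticulum, went from 39.0 ± 7.70 to 141 ± 32.1 CPM (SD, n = 6 each, log2 fold change 1.86, adjusted p = 5.28e-06 by edgeR), more than any of the 43 genes. Calcoco1, another endoplasmic reticulum receptor, and Ncoa4, the receptor for ferritin, rose by 0.91 and 0.72 on the log2 scale.

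Among 13 regulators of TFEB and of mTORC1 docking at the lysosome, 4 (30.8%) were higher and 3 (23.1%) lower. Flcn and Fnip1, partners in the complex that controls the phosphorylation of TFEB and TFE3, had log2 fold changes of 0.55 (adjusted p = 0.000523) and 0.65 (adjusted p = 0.00207), and Lamtor1, the Ragulator anchor, one of -0.41 (adjusted p = 1.83e-05). Of 16 V-ATPase genes, which acidify the lysosome, 4 (25.0%) were higher and 2 (12.5%) lower. The log2 fold changes were 0.30 for Atp6v1b2, 0.24 for Atp6ap1 and -0.25 for Atp6v0a1.

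Of 38 other lysosomal enzymes, 3 (7.89%) were higher and 6 (15.8%) lower. The phospholipase Pla2g15 went from 10.7 ± 1.26 to 5.63 ± 0.339 CPM and the mannosidase Manba from 12.6 ± 1.24 to 7.57 ± 0.686 CPM (SD, n = 6 each, log2 fold changes -0.92 and -0.73, adjusted p = 5.46e-07 and 3.23e-06 by edgeR). The acid phosphatase Acp2 fell by 0.43 on the log2 scale. Of 13 other genes of the lysosomal membrane and of sorting, 5 (38.5%) were higher and 2 (15.4%) lower. The log2 fold change was -1.0 for the sorting receptor gene Sort1, -0.38 for Tmem192 and 0.15 for Scarb2, the receptor for glucocerebrosidase. Of these 18 named genes, 17 passed in each of 23 other fits, and Scarb2 failed in 4. They were picked for the smallest p in the same livers, so this says nothing about the rest of their lists. Rplp0, the transcript that the study's RT-PCR used as internal control, had a log2 fold change of 0.04 (adjusted p = 0.61 by edgeR).

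**Figure D5:**
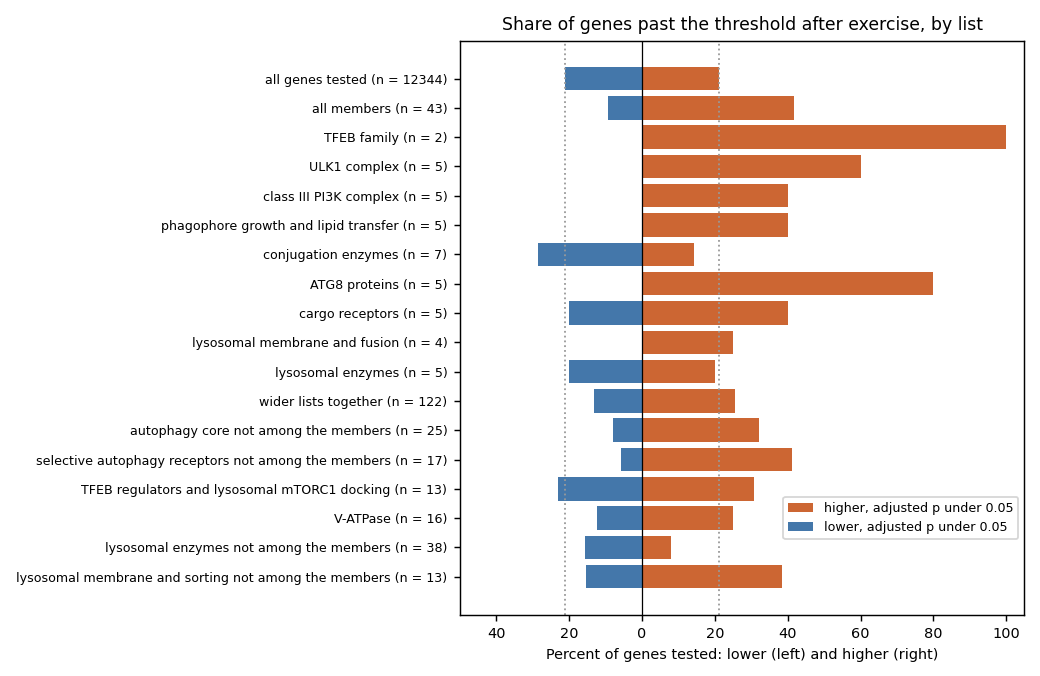
Bars give the percent of the genes tested in each list (y axis, with n) that were lower (left) or higher (right) at an adjusted p under 0.05, with dotted lines at the shares over all genes tested, 21.3% and 21.1%. The ATG8 genes stand at 80% higher and the 38 other lysosomal enzymes at 7.89% higher and 15.8% lower. The smallest list holds 2 genes.

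Exons of 17 of the 43 genes overlap those of another gene in GENCODE vM21, mostly on the opposite strand. Among the genes that changed without overlap of the groups these are Rb1cc1 with 4732440D04Rik, Atg14 with Gm49004, Gabarapl1 with 1700101I11Rik and Map1lc3b with Zcchc14. The strand setting of the counting is not given in the sources used here, so reads of such pairs may not be told apart.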

How the data were processed

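Liver RNA from 12 mice was sequenced. For each gene and liver the authors deposited 2 values, an estimated count and its FPKM. The submitters' processing notes name Bowtie2 2.3.4.3, RSEM 1.3.1 and mm10. The deposited estimated counts are unscaled, and 31.3% of them are fractional. In FPKM the authors corrected for length of transcript and depth. The strand setting is not given in the sources used here.

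Counts were rounded and tested across 12344 genes with edgeR 4.0.16 in R 4.3.3, using TMM factors, filterByExpr (minimum count 10) and a robust quasi-likelihood model with group as its single term. Benjamini-Hochberg adjusted p-values under 0.05 passed. Adjusted p-values are from this fit unless another test is named. Single values were compared by a two-sided exact permutation test over all relabellings on log2 values. Totals were 18745379 to 19324461 counts. No libraries were duplicates (chi-square per gene 8.01 to 45.7 within groups). The steps were tested on simulated data.

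The 43 genes and all lists were chosen with earlier results of these data known. Full values are given for genes past the threshold without overlap, at most 4 per role. From each wider list the 3 genes with the smallest p are named. Alternatives were other filters, scalings and tests (limma 3.58.1, DESeq2 1.42.0), FPKM, the replicate number as a block and leaving out each liver. The ATG8 shares and the Ulk1 to Ulk2 ratio, the overlap counts under other scalings and the refits of the genes named from the wider lists were chosen after seeing the data. Promoter windows (GRCm38.p6) and gene positions (GRCm38) came from RefSeq, and exon overlaps from GENCODE vM21. Python 3.11.15 did the rest.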

Additional observations from a re-analysis of the deposited data

Results flagged for a closer look

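In 5 of 86 groups of 6 livers, 1 liver stood far from the other 5 in CPM, where chance gives about 4.3. Exercise replicate 3 was the high liver in 4 of them: Gabarapl1 (271 CPM, next liver 212), Sqstm1 (380 CPM, next 322), Mcoln1 (31.4 CPM, next 27.4) and Ctsb (535 CPM, next 473). In the remaining group Exercise replicate 2 was low for Ctsd (265 CPM, next 292). Of the exercised livers, replicate 3 had the lowest TMM factor (0.914) and replicate 2 the highest (1.01). Without Exercise replicate 3 the log2 fold change of Gabarapl1 was 0.83 and still passed. The cause was not tested.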

How the results depend on the processing

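Of the 22 changed genes, 16 passed in all 23 other fits, and none of the 22 changed direction in any of them. With library size alone 13 genes were higher and 5 lower, with Rplp0 as internal control 14 and 4, in FPKM (either pseudocount) 13 and 5, with upper quartile 17 and 4, and with DESeq2 19 and 4. At an adjusted p under 0.01, 14 were higher and 2 lower. Leaving out each liver gave 20 to 23 changed, 17 to 20 higher and 3 to 4 lower. The calls lost in some setting were those of Tfeb, Wipi2, Gabarapl2, Optn, Lamp2 and Ctsl, and those gained were of Ulk2, Atg2a, Atg2b, Gabarap, Sqstm1 and Lamp1, all higher, and Mcoln1, lower. Genes whose groups did not overlap numbered 16, but 9 with Rplp0 as internal control, 13 with library size alone and 13 in FPKM. Of the wider lists, 12 were higher and 33 lower with library size alone, 12 and 31 in FPKM (either pseudocount), 16 and 18 with Rplp0, and 16 and 13 at an adjusted p under 0.01, against 25 to 31 and 14 to 18 when 1 liver was left out. The cause was not tested. Counting error limits what depth can show for genes of few counts, the lowest being 55.

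Both groups are numbered 1 to 6, but deviations of same-numbered livers correlated at -0.1 to 0.16, and 2 of 6 livers correlated best with their own number, so the numbers do not show a pairing. With the replicate block 20 of the 43 genes changed (17 higher, 3 lower), and 28 higher and 15 lower of the wider lists. Under it Tfeb, Wipi2 and Optn were not called and Atg2b was.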
